A study of Homo sapiens with 6 samples.

Results

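The 36 genes examined here encode the enzymes of glycolysis, the carriers of glucose and lactate, the enzymes that control the entry of pyruvate into mitochondria, and 9 further genes that are induced when oxygen is short. They were chosen by name from knowledge of these pathways, with earlier results of these data known. All 36 were found among the 58830 rows of the expression table. RNA-seq of total RNA compared definitive endoderm derived from the human embryonic stem cell line HuES8 in 2 groups of 3 libraries, wild type (DE) and GATA6-AS1 knockdown (KD). Both groups went through a 3 day protocol in DMEM-F12 medium (0.2% BSA, antibiotics), for 1 day with Activin A at 100 ng/mL plus CHIR at 2.5 µM, an inhibitor of GSK3 that switches on Wnt signalling, and then for 2 days with Activin A alone. The means of knockdown, the number of clones and any control construct in the wild-type cells were not stated in the labels. No label says that libraries of a group came from separate cultures, so p-values measure how these libraries vary, and that variation may be technical only.

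Glycolysis splits glucose into pyruvate in the cytosol, and lactate dehydrogenase or the mitochondrial pyruvate dehydrogenase complex then takes the pyruvate on. Pluripotent stem cells are known for a high rate of glycolysis with release of lactate, and cells leaving pluripotency change this rate in ways that depend on the germ layer. When oxygen falls, the hypoxia-inducible factors HIF1A and EPAS1 escape destruction, pair with ARNT and bind the hypoxia response element, whose core is ACGTG or GCGTG, near glucose carriers, glycolytic enzymes and genes such as VEGFA, CA9 and BNIP3.

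Promoter sequences were read to show which members carry that core close to their start. Windows from 250 bases before to 50 bases after a RefSeq start on GRCh38.p14 were at hand for 32 of the 36 members, in 60 windows, since several genes have more than 1 start. In the first window listed for each gene, 12 of 32 members (37.5%) held ACGTG on either strand, against 21.6% of the first windows of all 27305 genes. ACGTG or GCGTG on either strand stood in 21 of 32 (65.6%) against 48.4%. A match is a short word in the sequence and not a bound site. The 250 bases before the first listed start are printed for HK1, the only member that passed the test over all genes, and HK2, GPI and PKM, neighbouring enzymes that passed in a fit with the replicate number as a block, as well as for BNIP3 and CA9, classical hypoxia genes that were close to level or too low to test. Capitals mark the motif ACGTG, the motif GCGTG and, where the other strand holds them, CACGT for the former and CACGC for the latter. HK1 and PKM hold none in this stretch, GPI and CA9 hold 1, HK2 holds 3 and BNIP3 holds 6, where CACGTG, which reads the same on both strands, was counted on each. The full PKM window, with the 50 bases after the start, holds 1. HK1 has 7 listed starts, and the windows of those at 69318181 and 69319064 hold 1 each and the others none.
HK1, chr10:69269750-69269999, plus strand: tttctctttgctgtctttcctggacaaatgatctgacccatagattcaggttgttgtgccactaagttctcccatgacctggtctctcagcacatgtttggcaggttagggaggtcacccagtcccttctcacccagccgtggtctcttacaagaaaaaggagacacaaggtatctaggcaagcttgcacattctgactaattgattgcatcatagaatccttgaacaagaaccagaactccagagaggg
HK2, chr2:74833877-74834126, plus strand: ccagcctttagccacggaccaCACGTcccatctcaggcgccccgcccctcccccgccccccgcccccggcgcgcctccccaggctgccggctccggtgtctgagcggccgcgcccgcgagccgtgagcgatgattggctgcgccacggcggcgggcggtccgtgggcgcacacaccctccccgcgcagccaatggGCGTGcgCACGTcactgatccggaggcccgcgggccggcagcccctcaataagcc
GPI, chr19:34364742-34364991, plus strand: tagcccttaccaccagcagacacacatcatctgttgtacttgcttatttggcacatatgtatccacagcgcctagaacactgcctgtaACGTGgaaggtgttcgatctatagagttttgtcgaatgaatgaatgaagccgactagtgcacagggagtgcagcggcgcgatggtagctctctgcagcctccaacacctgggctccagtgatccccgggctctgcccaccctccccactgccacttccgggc
PKM, chr15:72231191-72231440, minus strand: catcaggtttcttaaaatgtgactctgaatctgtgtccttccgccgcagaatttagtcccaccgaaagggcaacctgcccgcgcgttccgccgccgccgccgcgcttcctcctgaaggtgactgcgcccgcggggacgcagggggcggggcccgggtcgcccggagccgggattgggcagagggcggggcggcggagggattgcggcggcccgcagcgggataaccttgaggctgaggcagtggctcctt
BNIP3, chr10:131981924-131982173, minus strand: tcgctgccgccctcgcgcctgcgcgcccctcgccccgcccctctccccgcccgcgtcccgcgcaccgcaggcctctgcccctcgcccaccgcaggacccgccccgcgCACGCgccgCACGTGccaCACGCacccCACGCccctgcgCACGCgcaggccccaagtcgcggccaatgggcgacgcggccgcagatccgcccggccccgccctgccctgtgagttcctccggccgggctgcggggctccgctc
CA9, chr9:35673678-35673927, plus strand: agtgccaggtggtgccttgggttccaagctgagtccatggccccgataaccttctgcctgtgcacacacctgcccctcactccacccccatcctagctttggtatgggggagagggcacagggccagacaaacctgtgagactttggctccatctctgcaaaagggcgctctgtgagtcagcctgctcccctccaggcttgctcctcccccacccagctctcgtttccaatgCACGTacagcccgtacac

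Levels are given in TPM, reads per gene length scaled to the same total in every library, so that different genes can be compared. Depth, estimated from the steps between low values, was between 18640755 and 24510641 reads per library, and 1 TPM of a 2 kb gene stood for 11.28 to 16.16 reads. Transcripts of mitochondrial DNA took 24.6% to 28.8% of TPM in replicates 1 and 2 of both groups but 38.04% in DE replicate 3 and 36.2% in KD replicate 3, which lowers every other value there. GATA6-AS1, the RNA knocked down, measured 388.5, 421 and 313 TPM in DE replicates 1 to 3 against 179.7, 163 and 126 TPM after knockdown, so that it fell to 41.8% of its wild-type mean (log2 change -1.26, limma adjusted p = 0.0128, and 0.0644 without DE replicate 1 or 0.0590 without KD replicate 2). GATA6, its neighbour on the opposite strand, had a log2 change of -0.66 (limma adjusted p = 0.0648, with the block 0.00500), and with no stated strand setting reads from stretches that the pair shares cannot be told apart. Markers of the labelled cell type were present, with 12 of 12 definitive endoderm markers tested, of which 6 fell in KD and 12 fell with the replicate block. Their summed level was 25398 to 29345 TPM in wild type against 18587 to 20418 TPM after knockdown. Most of this sum was CER1, at 22060 to 25176.5 TPM in wild type against 16124.3 to 17650.5 TPM after knockdown. Of 12 pluripotency markers 8 rose, 9 with the block, and their sum went from between 3426 and 4316 TPM to between 4596 and 5192 TPM. The 11 mesoderm markers went both ways: KDR and TBX5 rose, HAND1 fell, ISL1 fell with the block, and the median log2 change of the 6 tested was -0.31. Their sum was 133 to 170.5 TPM in DE and 172 to 188 TPM in KD, and 59.5 to 76.4 against 53.8 to 62.6 TPM without KDR. Of 4 neuroectoderm markers tested 0 passed with or without the block, and the sum of all 8 was 118 to 162 TPM in DE and 165 to 186 TPM in KD, most of it NES (27.6 to 31.5 against 33.9 to 35.04 TPM without it). The sum was lower in KD for 6 extraembryonic endoderm markers (6.19 to 8.71 and 2.69 to 3.44 TPM). The 8 fibroblast feeder markers overlapped (34.2 to 45.6 and 31.4 to 43.5 TPM). MESP1, SOX1, AFP, TTR, COL3A1 and DCN stayed under 1 TPM in all 6 libraries. The part of these cell-type differences in the results that follow was not tested.

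In wild-type endoderm the genes for the enzymes were high and most of the other hypoxia-induced genes were lower. The 17 enzymes from hexokinase to lactate dehydrogenase together took 0.827%, 0.861% and 0.710% of TPM in DE replicates 1 to 3 and 0.884%, 0.926% and 0.812% in KD replicates 1 to 3. With mitochondrial transcripts left out of the total the shares were 1.16%, 1.14% and 1.15% in DE and 1.23%, 1.30% and 1.27% in KD. On that scale the KD libraries all lay above the DE libraries, while on the deposited scale KD replicate 3 lay below DE replicates 1 and 2. These sums do not show each enzyme, as GAPDH weighed most in them and PFKL, PFKM and PKM had estimates below 0. GAPDH was the most abundant member at 3087 ± 165 TPM (SD, n = 3) in DE, followed by ENO1 at 1059 ± 188 TPM. TPI1, PGAM1, LDHB and PKM followed with means between 614 and 669 TPM, within 1 SD of the most variable of them. A total of 14 members had a DE mean above 100 TPM, and 3, PDK4, CA9 and ANKRD37, lay near 1 TPM and did not reach the limit for testing of 1 TPM in at least 3 libraries. The plot of levels shows the range.

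**Figure D1:**
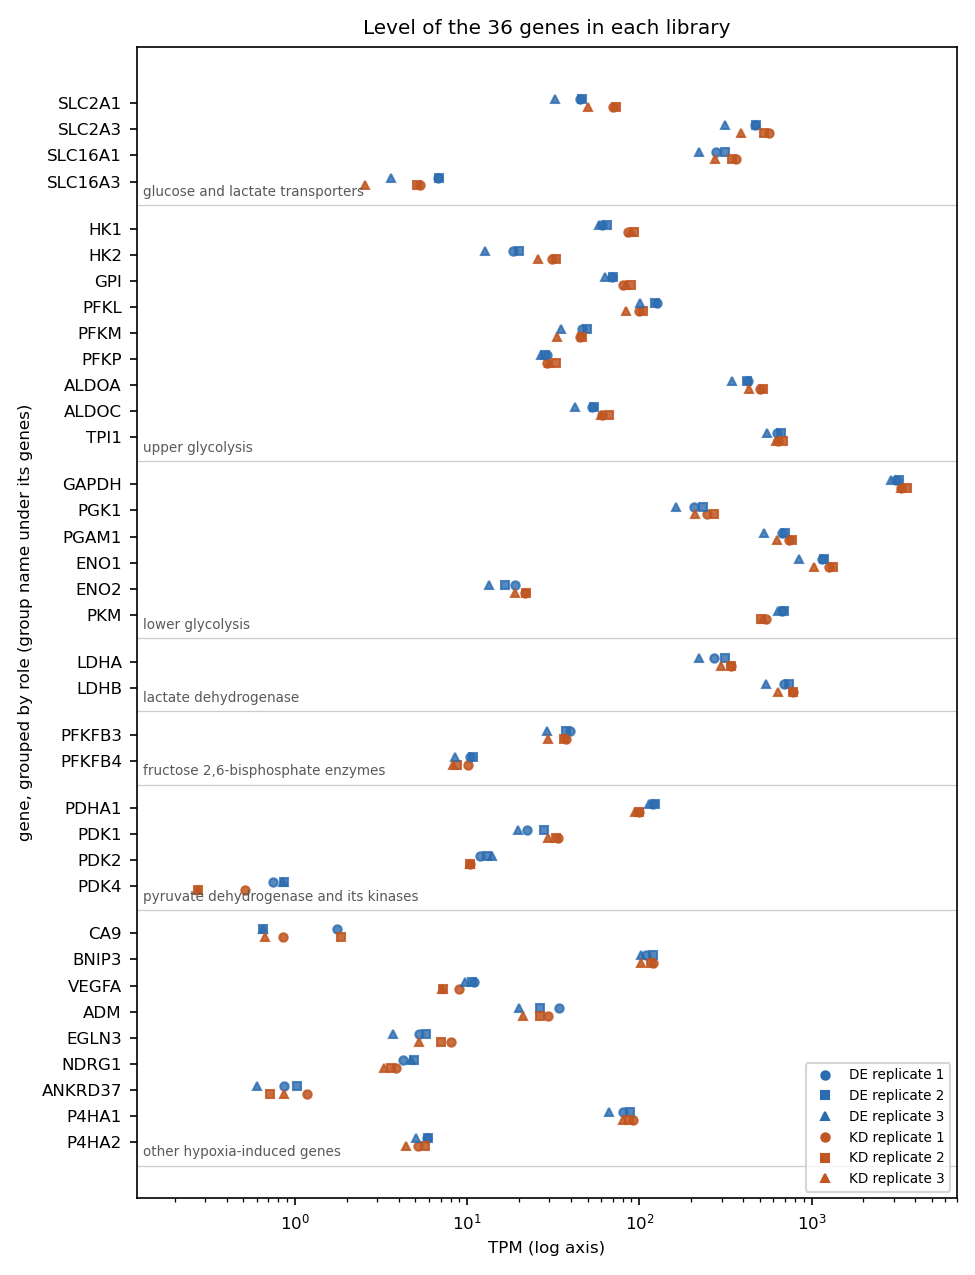
TPM (log axis) of the 36 genes in each of the 3 DE libraries (blue) and 3 KD libraries (orange), with the replicate number as the marker shape. GAPDH lies highest, between 2909 and 3570 TPM, and HK1, HK2 and SLC2A1 show KD libraries above all DE libraries, while PKM and PDHA1 show them below.

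The comparison of KD with DE asked which of these genes differed when GATA6-AS1 was reduced. HK1, the hexokinase that is found in most tissues, rose, and it was the only member to pass. Of 33 members tested, 1 rose and 0 fell, where 1.77% and 1.5% of all 17711 genes tested rose and fell (limma, Benjamini-Hochberg adjusted p under 0.05). At an unadjusted limma p under 0.05, 8 members were higher and 4 lower, against 7.27% and 8.15% of all genes. The libraries of the groups did not overlap for 15 members, 10 with every KD library above every DE library and 5 below, where these shares were 10.1% and 10.7% over all genes. The median log2 change over the 33 members was 0.14 and that over all genes -0.01; without DE replicate 3 the former was 0.04 (all genes -0.10) and without DE replicate 2 it was 0.23. In bulk RNA fewer cells that express a gene and less RNA of it per cell cannot be told apart, which holds for each difference given here.

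With the replicate number of the sample titles taken as a block, 12 members rose and 4 fell, against 5.88% and 6.62% of all genes. None of the shares over all genes given here was matched for the level of the members. The 12 were the glucose carriers SLC2A1 and SLC2A3, the lactate carrier SLC16A1, the enzymes HK1, HK2, GPI, ALDOA, ALDOC, PGK1, ENO2 and LDHA, and the kinase PDK1. The 4 were the enzymes PFKL and PKM, the pyruvate dehydrogenase subunit PDHA1 and the growth factor VEGFA. In same-numbered libraries 19 of 33 members were higher in KD in all 3 comparisons and 10 lower in all 3, against 23.2% and 25.7% of all genes. All 16 block calls were also made, in the same direction, when the block was combined with TPM recomputed without mitochondrial transcripts or with median-ratio scaling, alternatives chosen after seeing the data. These fits gave 16 members higher and 4 lower each, adding EGLN3, ENO1, LDHB and PGAM1 to those that rose, against 7.44% and 7% of all genes in the former and 8.18% and 8.05% in the latter. The former tested 36 members and the latter 33. The block assumes a pairing that no label states.

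**Figure D2:**
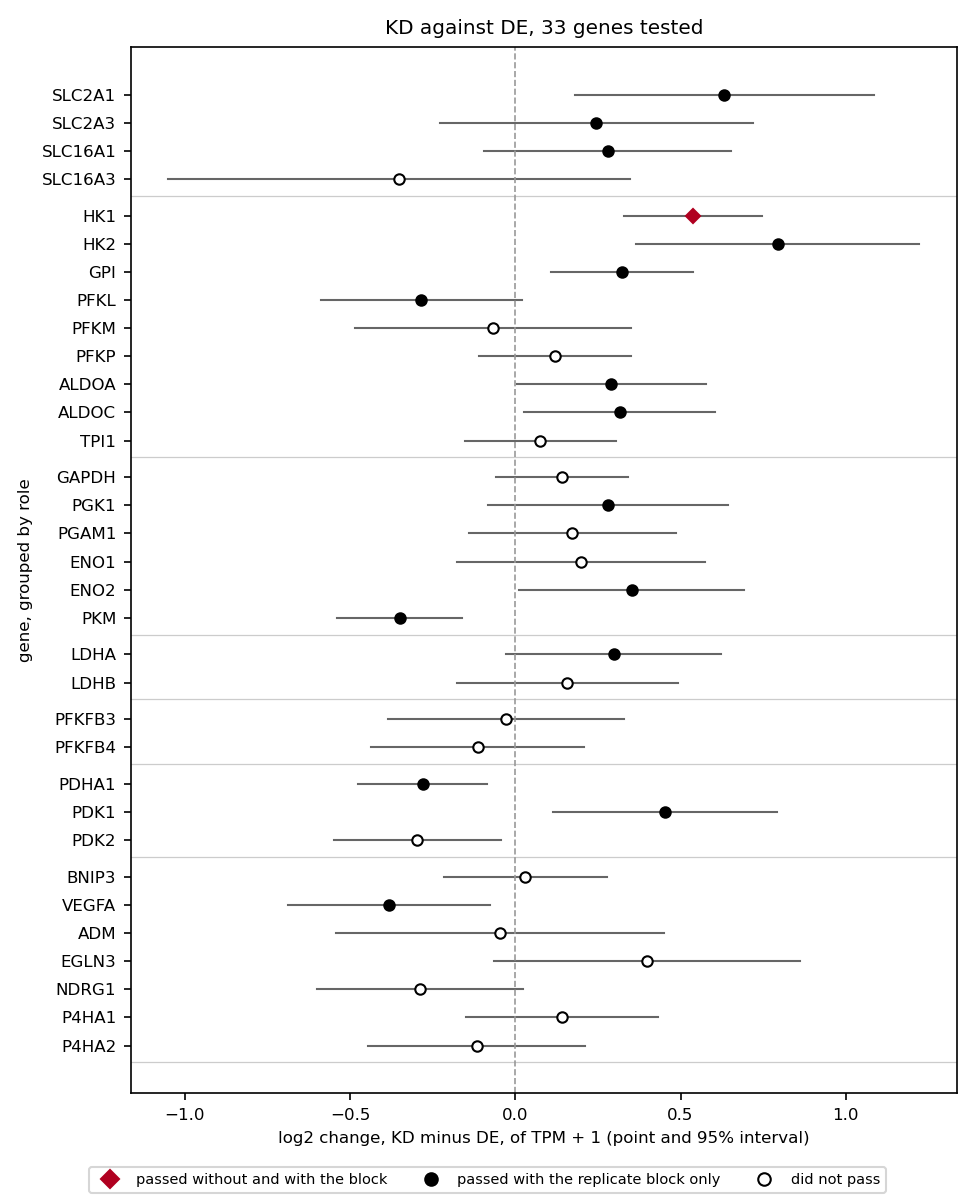
Log2 change of TPM + 1 (KD minus DE) with its 95% interval for the 33 tested genes, by role. The red diamond (HK1) passed without and with the replicate block, filled circles passed with the block only, and open circles passed neither; the filled circles lie right of 0 for 11 genes and left of 0 for PFKL, PKM, PDHA1 and VEGFA.

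The glucose carriers came first in the path. SLC2A1, the carrier GLUT1 of most cell types, stood at 45.5, 46.2 and 32.3 TPM in DE replicates 1 to 3 and at 70.7, 72.9 and 50.3 TPM in KD replicates 1 to 3. Every KD library lay above every DE library, and replicate 3 was the lowest of each group. The log2 change was 0.63 (SE 0.193, 95% interval 0.18 to 1.08), with a limma adjusted p of 0.158 and of 0.00259 with the block. SLC2A3, the high-affinity carrier GLUT3, was far more abundant, at 471, 473 and 316 TPM in wild type against 563, 533 and 390.1 TPM after knockdown. Its groups overlapped, because KD replicate 3 was below DE replicates 1 and 2, and its log2 change was 0.25 (limma adjusted p = 0.706, with the block 0.0305). SLC2A3 has a near-identical neighbour, SLC2A14, so reads may be shared between them, and SLC2A14 itself held 2.92 TPM in wild type against 3.72 TPM after knockdown as means.

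SLC16A1, the monocarboxylate carrier MCT1, which moves lactate and pyruvate, had 278, 314 and 222 TPM in wild type against 365, 344 and 276 TPM after knockdown. The groups overlapped in KD replicate 3 alone, and the log2 change was 0.28 (limma adjusted p = 0.508, with the block 0.0414). SLC16A3, the lactate exporter MCT4 of strongly glycolytic cells and a hypoxia-induced gene, was low, at 6.79, 6.88 and 3.63 TPM in wild type against 5.30, 5.12 and 2.54 TPM after knockdown. Its estimate was below 0 (log2 change -0.35, 95% interval -1.05 to 0.35), and it did not pass with or without the block (limma adjusted p = 0.719 and 0.0790).

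Hexokinase traps glucose in the cell by phosphorylation. HK1 (chromosome 10 from 69269984 to 69401884, GENCODE 29 on GRCh38) stood at 60.6, 65.2 and 58.4 TPM in wild type against 86.1, 92.6 and 89.7 TPM after knockdown. The lowest KD library was well above the highest DE library, and replicate 3 did not stand apart in KD. Its mean went from 61.4 ± 3.48 to 89.5 ± 3.26 TPM (SD, n = 3 each), a ratio of 1.46. On the log2 scale it rose by 0.54 (SE 0.0891, 95% interval 0.33 to 0.75, limma adjusted p = 0.0249, with the block 0.00400). The call was lost, with fewer libraries in the fit, without DE replicate 1 (0.143), DE replicate 2 (0.0558), KD replicate 1 (0.0940), KD replicate 2 (0.165) or KD replicate 3 (0.0843), while the log2 change stayed between 0.50 and 0.58. Over all alternatives the adjusted p ranged from 0.00229 to 0.165.

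HK2, the inducible hexokinase of growing and hypoxic cells (chromosome 2 from 74833981 to 74893359), had 18.4, 20.1 and 12.7 TPM in wild type against 31.1, 32.8 and 25.9 TPM after knockdown. No KD library overlapped a DE library. The log2 change of 0.79 (SE 0.183, 95% interval 0.36 to 1.22) was the largest among the 33 members, with a limma adjusted p of 0.0685 and of 0.00410 with the block.

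The estimates of the enzymes after hexokinase differed in sign. GPI, which turns glucose phosphate into fructose phosphate, had 69.2, 69.9 and 63.4 TPM in wild type against 80.3, 89.7 and 84.1 TPM after knockdown, without overlap (log2 change 0.32, limma adjusted p = 0.128, with the block 0.0238). Phosphofructokinase, the committed step, is built from the subunits PFKL, PFKM and PFKP, named for liver, muscle and platelet. PFKL, the most abundant of them, stood at 126, 124 and 101 TPM in wild type against 99.6, 105 and 83.4 TPM after knockdown. Its groups overlapped because DE replicate 3 was below KD replicate 2, and its log2 change was -0.29 (95% interval -0.59 to 0.02, limma adjusted p = 0.367, with the block 0.0206). PFKM (log2 change -0.07) and PFKP (0.12) passed neither way, although PFKP was higher in every KD library, from 29.05 to 32.95 TPM against 26.8 to 28.96 TPM.

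Aldolase cuts the sugar into 2 trioses, and TPI1 interconverts these. ALDOA, the main isozyme, had 429, 423 and 345 TPM in wild type against 504, 525 and 433 TPM after knockdown. ALDOC, the isozyme best known from brain, had 53.3, 54.8 and 42.5 TPM in wild type against 60.8, 67.0 and 59.5 TPM after knockdown. Neither gene's groups overlapped, and the log2 changes were 0.29 and 0.32 (limma adjusted p = 0.315 and 0.276, with the block 0.0160 and 0.0429). TPI1 was nearly level at 614 ± 56.5 TPM in wild type against 646 ± 32.1 TPM after knockdown (SD, n = 3 each), with a log2 change of 0.08 and an interval of -0.15 to 0.31. Over the 9 genes from hexokinase to TPI1, 1 rose and 0 fell, and 5 rose and 1 fell with the block, with a median log2 change of 0.29.

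The steps from GAPDH on make ATP and pyruvate. GAPDH, widely used as a reference gene, had 3116, 3235 and 2909 TPM in wild type against 3328, 3570 and 3310.4 TPM after knockdown. The KD libraries lay above the DE libraries, but the change was small (log2 change 0.14, 95% interval -0.06 to 0.34, limma adjusted p = 0.541) and its sign turned to -0.07 under quantile normalization. PGK1, the first ATP-forming enzyme, had 208, 234 and 164 TPM in wild type against 249, 272 and 211 TPM after knockdown (log2 change 0.28, limma adjusted p = 0.487, with the block 0.0232). PGAM1 and ENO1 had log2 changes of 0.17 and 0.20 and passed neither way (limma adjusted p = 0.678 and 0.697, with the block 0.0838 and 0.0655). ENO2, the neuronal and hypoxia-responsive enolase, had 19.0, 16.5 and 13.3 TPM in wild type against 21.5, 22.1 and 19.02 TPM after knockdown. Its KD libraries were all above its DE libraries, the closest pair being nearly equal (log2 change 0.35, limma adjusted p = 0.308, with the block 0.0487).

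PKM, pyruvate kinase of muscle and most growing cells, catalyses the last step to pyruvate, and its estimate had the opposite sign to those of its neighbours. It stood at 678, 693 and 635 TPM in wild type against 540.5, 510.0 and 521 TPM after knockdown. Each KD library was below each DE library, and replicate 3 was not the lowest in KD. The mean went from 669 ± 30.05 to 524 ± 15.4 TPM (SD, n = 3 each). The log2 change was -0.35 (SE 0.0800, 95% interval -0.54 to -0.16), with a limma adjusted p of 0.0665 and of 0.0116 with the block. PKM makes the splice forms M1 and M2, which gene-level TPM do not separate. Its coordinates are 72199029 to 72231822 on the minus strand of chromosome 15.

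Lactate dehydrogenase interconverts pyruvate and lactate, with LDHA the muscle-type and LDHB the heart-type subunit, and LDHB was the more abundant here. LDHA had 270, 313 and 222 TPM in wild type against 343, 341 and 297 TPM after knockdown, and LDHB had 696, 739 and 546 TPM in wild type against 781, 782 and 638 TPM after knockdown. Both overlapped between groups in KD replicate 3. The log2 changes were 0.30 for LDHA (limma adjusted p = 0.380, with the block 0.0435) and 0.16 for LDHB (0.744, with the block 0.101).

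**Figure D3:**
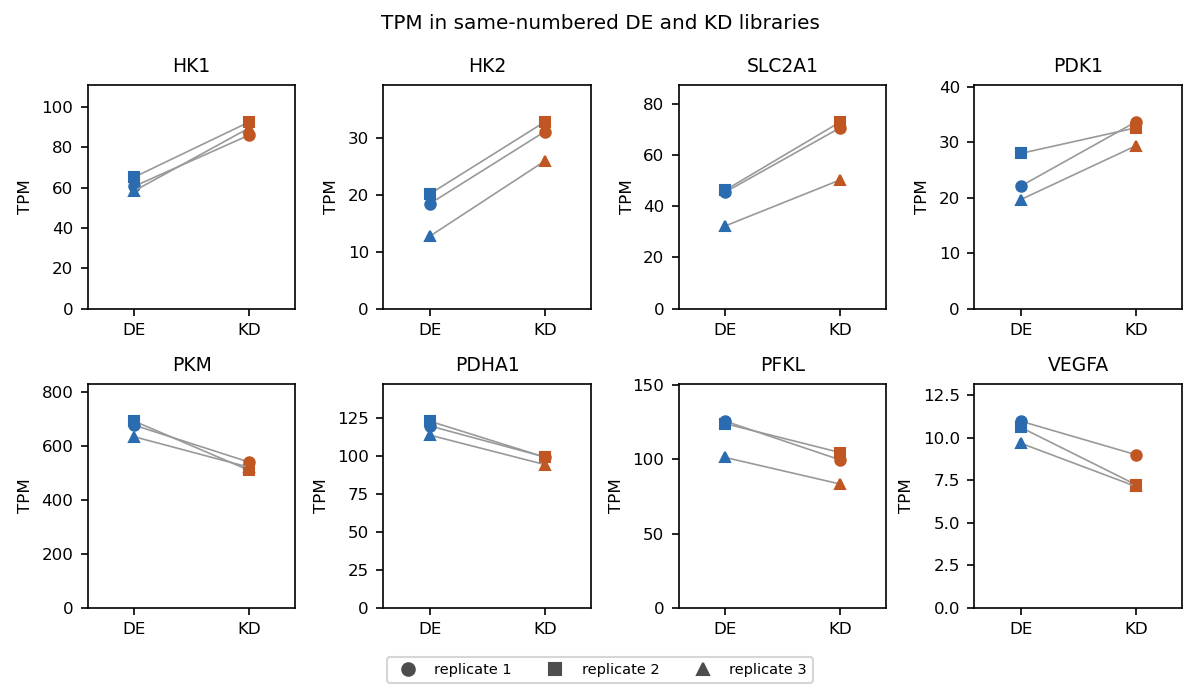
TPM (linear axis from 0) of 8 genes in DE and KD, with lines joining libraries of the same replicate number. HK1, HK2, SLC2A1 and PDK1 are higher in KD along all 3 lines and PKM, PDHA1, PFKL and VEGFA lower along all 3.

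The gate to the mitochondrion is set by pyruvate dehydrogenase, which the PDK kinases switch off. PDHA1, the catalytic subunit that the kinases phosphorylate, had 120.0, 123 and 114 TPM in wild type against 99.5, 99.4 and 94.5 TPM after knockdown, without overlap. Its log2 change was -0.28 (SE 0.0829, 95% interval -0.48 to -0.09, limma adjusted p = 0.143, with the block 0.0194). PDK1, a hypoxia-induced kinase, had 22.1, 28.02 and 19.7 TPM in wild type against 33.7, 32.7 and 29.4 TPM after knockdown, also without overlap (log2 change 0.45, limma adjusted p = 0.176, with the block 0.0307).

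PDK2, the most widely expressed kinase of the family, had an estimate of the opposite sign, at 11.9, 13.0 and 13.9 TPM in wild type against 10.4, 10.4 and 10.3 TPM after knockdown. It did not pass either way (log2 change -0.30, limma adjusted p = 0.235, with the block 0.0716), although every KD library was lower. PDK4, a kinase induced by fasting, was at 0.742, 0.862 and 0.856 TPM in wild type against 0.510, 0.272 and 0.274 TPM after knockdown, which stand for an estimated 24, 25 and 25 reads against 13, 8 and 10. It was below the limit for testing, and the values are given as a description. The paired enzymes PFKFB3 and PFKFB4, which set the level of the activator of phosphofructokinase, stayed close to level with log2 changes of -0.03 and -0.11 and intervals of -0.38 to 0.33 and -0.44 to 0.21.

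None of the other hypoxia-induced genes tested passed without the block. Of the 7 tested, 0 rose and 0 fell, with the block 0 rose and 1, VEGFA, fell, and the median log2 change was -0.05. VEGFA, the vascular endothelial growth factor, had 11.0, 10.6 and 9.69 TPM in wild type against 9.01, 7.25 and 7.14 TPM after knockdown. No KD library reached a DE library, and the log2 change was -0.38 (95% interval -0.69 to -0.08, limma adjusted p = 0.203, with the block 0.0444). NDRG1, a stress-induced gene, was also lower in every KD library, at 3.30 to 3.88 TPM against 4.21 to 4.92 TPM, and did not pass (limma adjusted p = 0.374, with the block 0.190).

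EGLN3, an oxygen-sensing hydroxylase that marks HIF proteins for destruction, had 5.22, 5.74 and 3.72 TPM in wild type against 8.03, 7.03 and 5.26 TPM after knockdown. Its groups overlapped, and it did not pass with the block at 0.0628 (log2 change 0.40, limma adjusted p = 0.415). BNIP3, a mitophagy receptor, was level at 110.4 ± 8.51 and 113 ± 9.59 TPM (SD, n = 3 each), with a log2 change of 0.03 and an interval of -0.22 to 0.28. The table holds 39 BNIP3 pseudogene rows with a summed level of 31.2% to 44.3% of BNIP3 itself, so its reads may be split among copies. The pseudogenes of the other members came to at most 6.24% of their gene (TPI1), apart from EGLN3 with 1 row of up to 15.1%.

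ADM, which encodes the vasodilator adrenomedullin, spread widely within groups, from 19.9 to 34.4 TPM in wild type against 21.03 to 29.6 TPM after knockdown (log2 change -0.05). P4HA1 and P4HA2, subunits of the collagen prolyl hydroxylase, had log2 changes of 0.14 and -0.12 and passed neither way. CA9, a pH-regulating carbonic anhydrase and one of the sharpest hypoxia markers, held 1.76, 0.653 and 0.649 TPM in wild type against 0.8496, 1.84 and 0.667 TPM after knockdown, an estimated 21, 7 and 7 reads against 8, 20 and 9. A high library in each group set its mean, and no difference was detectable at this depth. ANKRD37 lay between 0.6001 and 1.17 TPM in all libraries, which stood for 10 to 18 estimated reads.

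Ratios between isozymes within a library do not depend on the library total, and they differed for several steps. PFKL made up 62.4%, 61.5% and 62.1% of phosphofructokinase TPM in DE and 57.2%, 56.9% and 57.0% in KD. The groups did not overlap, and the means differed by -4.99 percentage points, and the share of PFKP went from 14.9% ± 1.32 to 18.3% ± 1.83 (SD, n = 3 each). SLC2A1 went from 8.996% ± 0.248 to 11.5% ± 0.454 of the summed TPM of both glucose carriers, without overlap. LDHA made up 28.8% ± 0.910 of lactate dehydrogenase in DE and 30.9% ± 0.771 in KD, again without overlap.

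Among the 4 PDK kinases, PDK1 took 49.5%, 52.96% and 47.5% in DE and 59.5%, 60.02% and 58.4% in KD. PDK2 went from 28.3% ± 4.68 to 19.3% ± 1.11 and PDK4 from 1.79% ± 0.243 to 0.648% ± 0.220, without overlap (SD, n = 3 each). PDK3, which is not among the 36 genes, overlapped at 19.9% ± 2.73 and 20.8% ± 0.444, and its level was 9.30 ± 2.06 TPM in wild type against 11.2 ± 0.836 TPM after knockdown (log2 change 0.26, limma adjusted p = 0.586, with the block 0.200). SLC16A3 went from 2.05% ± 0.398 to 1.27% ± 0.310 of both lactate carriers, and P4HA2 from 6.65% ± 0.343 to 5.54% ± 0.492 of both hydroxylase subunits. The share of HK2 in hexokinase overlapped between groups, at 21.6% ± 3.22 and 25.03% ± 2.26, and ALDOC kept about the same share of aldolase (11.2% ± 0.272 and 11.4% ± 0.659). These shares are descriptions with no test, and how often such ratios separate the groups over all genes was not computed.

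**Figure D4:**
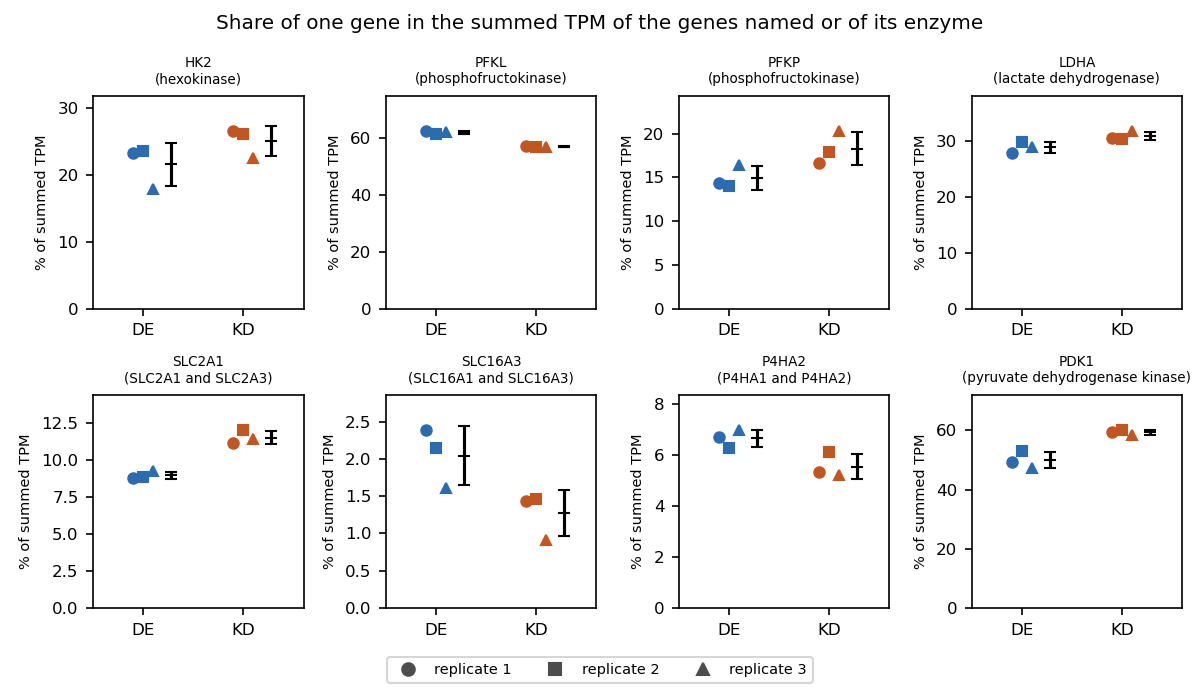
Share (%) of 1 gene in the summed TPM of its enzyme family, isozymes under 1 TPM in every library left out except PDK4, or of the pair named, by library (marker shape is the replicate) with mean and SD at the side, for 8 genes in DE (blue) and KD (orange). The groups of the genes drawn do not overlap except for HK2, and the means of PFKL are 62.0% and 57.02% and those of PDK1 49.97% and 59.3%. Among shares not drawn, those of PFKM, ALDOA, ALDOC, ENO1 and PDK3 overlapped, while those of ENO2, ENO3, PDK2 and PDK4 did not.

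Replicate 3 lay apart for many of these genes and for a smaller share of all genes tested. It was the lowest library of both groups for 27 of 33 members, against 60.8% of all genes tested. With TPM recomputed without mitochondrial transcripts, this held for 17 of 33 members, against 32.8%. On that scale all 36 members were tested, and PDK4, CA9 and ANKRD37 did not pass. Without any block 8 members rose (HK1, HK2, SLC2A1, GPI, ALDOA, ALDOC, LDHA and PDK1) and 2 fell (PFKL and PKM), against 4.57% and 4.23% of all genes. Median-ratio scaling gave 9 and 1 (4.96% and 4.88% of all genes) and quantile normalization 8 and 3 (4.86% and 4.94%). Without the third replicate of either group 4 rose (HK1, HK2, SLC2A1 and ALDOA) and 3 fell (PKM, PFKL and PDHA1), against 3.12% and 4.43%. Apart from GAPDH, no tested member changed sign between the deposited TPM and these 3 scalings.

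Genes of neighbouring pathways, taken from lists chosen by function, were counted in the same fits. Over all genes 1.77% rose and 1.5% fell, and with the block 5.88% and 6.62%. Of 11 mitochondrial pyruvate entry genes and 17 genes of the tricarboxylic acid cycle, 0 passed, and with the block 1 did, SUCLA2, which was higher. Their median log2 changes were 0.00 and 0.05. Of 16 tested further isozymes and carriers, 0 passed, 1 with the block (SLC2A10, lower). Among these, SLC16A8 (log2 change -0.50) and SLC2A14 (0.27) had the smallest p besides SLC2A10. HK3, PKLR, SLC2A2 and LDHC, isozymes known from blood, liver or testis, stayed under 1 TPM. Of 5 gluconeogenesis genes 0 passed either way, and PCK1 and G6PC, the liver genes of that path, were under 1 TPM.

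The pentose phosphate pathway and serine synthesis branch off glycolysis. Of 11 pentose phosphate genes 0 passed, and with the block TKT, PRPS1 and PRPS2 rose and H6PD fell. TKT, transketolase, had 187, 188 and 149.5 TPM in wild type against 245, 270.4 and 214 TPM after knockdown (log2 change 0.48, limma adjusted p = 0.119, with the block 0.00475). Of 6 genes of serine synthesis and the folate step after it, which start from a glycolytic intermediate, 0 passed, and PHGDH, PSAT1 and MTHFD2 rose with the block (log2 changes 0.32, 0.42 and 0.33).

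Of 11 glycogen genes PYGL rose, with a limma adjusted p just under the threshold of 0.05. PYGL, the liver-type phosphorylase that releases glucose from glycogen, went from 85.5 ± 11.9 to 134 ± 12.8 TPM (SD, n = 3 each, log2 change 0.64, limma adjusted p = 0.0489). With the block UGP2, which makes the sugar donor for glycogen, rose as well (log2 change 0.64).

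Most transcripts of the oxygen-sensing machinery did not pass. HIF1A had 202 ± 17.1 TPM in wild type against 191 ± 7.82 TPM after knockdown (log2 change -0.07, 95% interval -0.30 to 0.15). Of 12 genes in that list 1 fell, CITED2, a protein that competes with HIF for its coactivators, from 128 ± 5.002 to 83.4 ± 5.95 TPM (log2 change -0.61, limma adjusted p = 0.0196). HIF3A, a family member that can restrain the others, also fell with the block (log2 change -0.38). RNA levels do not show whether HIF proteins were stable.

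Of 27 tested further hypoxia-induced genes STC2 rose, and with the block 4 rose and 2 fell, with a median of 0.08. STC2, a secreted glycoprotein also induced by other stresses, had 3.63, 3.64 and 2.40 TPM in wild type against 10.3, 9.12 and 8.28 TPM after knockdown (log2 change 1.29, limma adjusted p = 0.0131). FAM162A, a mitochondrial protein, had a log2 change of 0.51 (limma adjusted p = 0.0722, with the block 0.0118). LOX, a collagen cross-linking enzyme, fell with the block (log2 change -0.88).

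Among regulators of glycolysis MYC and MYCN, activators of glycolytic genes, rose with the block (log2 changes 0.36 and 0.45), while TXNIP, which restrains glucose uptake, fell with it (-0.26). MLXIPL, a glucose-sensing factor, had a log2 change of -0.36 and did not pass (limma adjusted p = 0.176, with the block 0.0629).

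**Figure D5:**
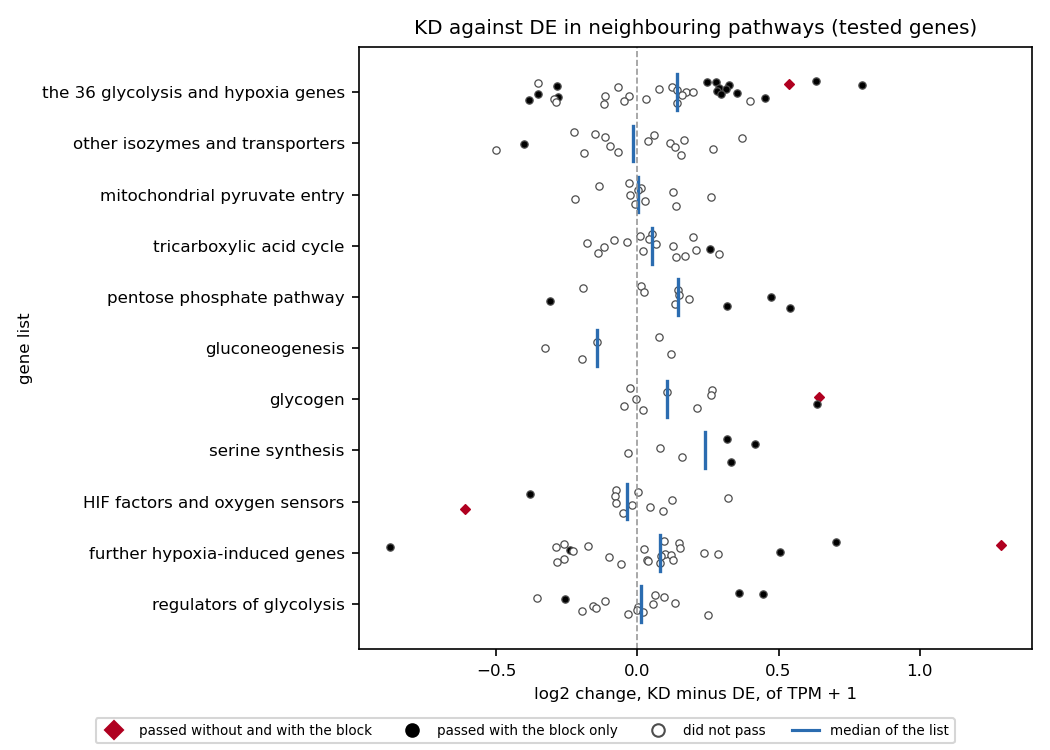
Log2 change of TPM + 1 (KD minus DE) of each tested gene in the 36-gene set and 10 neighbouring lists, with the median of each whole list as a blue bar; 3 tested genes that are not reported here are not drawn. Red diamonds (HK1, PYGL, CITED2 and STC2) passed without and with the block, filled circles with the block only; the medians lie between -0.14 for gluconeogenesis and 0.24 for serine synthesis.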

How the data were processed

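Per the file headers, the values that the authors deposited are TPM, in 58830 rows and 6 library columns that each have the same total. HISAT2 2.1.0, featureCounts, DESeq2 and GRCh38 appear, with no role, in the submitters' processing notes. Annotation release, strand setting and filters are not given there. Rows reaching 1 TPM in 3 or more libraries were fitted as log2(TPM + 1) by limma 3.58.1 in R 4.3.3 (group as the term, eBayes with trend, 2-sided, Benjamini-Hochberg over 17711 genes, threshold 0.05). A fold change on this scale understates low genes. An exact permutation test of GATA6-AS1, 2-sided, gave 0.1, the smallest p of 3 against 3. Figures and counts used Python 3.11.15.

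Depth was estimated for 37138 rows matched by symbol to 1 GENCODE 29 gene: TPM times exon length, up to 50 reads, lay within 0.02 of whole multiples of 1 constant for 88.2% to 89.0% of values. Simulated data with known changes and independent noise in each library were used to test the fit without the block. They held no shift of replicate 3 and no pairing, so they cannot show how either affects the calls. Deviations from the group means in libraries of the same number had correlations across genes of 0.108, 0.144 and 0.347. As each exceeded 0.1 the number served as a block, though unmatched DE replicate 2 and KD replicate 1 reached 0.121, and no label states the pairing. The members, lists and rule for naming genes (all members; up to 3 of each other list by p, with others chosen after their values were seen) were chosen with earlier results of these data known. ELOB, ELOC and 3 alternative symbols of listed genes matched no row. Alternatives were pseudocounts, filters, scalings, variance settings, the block and left-out libraries. Some genes of the neighbouring lists are counted in their lists but not reported here.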

Additional observations from a re-analysis of the deposited data

How the results depend on the processing

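No member that passed in any fit changed direction. The only sign change under a setting other than a left-out library was GAPDH, -0.0721 under quantile normalization, and the cause was not tested. Leaving out 1 library turned the sign of estimates near 0, which ranged from -0.16 to 0.0796 for PFKFB3, -0.22 to 0.0829 for PFKM, -0.24 to 0.14 for ADM and -0.0228 to 0.10 for BNIP3. With 1 library left out, members that rose ranged from 0 to 1 and none fell, by limma with fewer libraries. The median of the members ranged from 0.0406 (without DE replicate 3, where the median of all genes was -0.10) to 0.23 (without DE replicate 2). Non-overlapping members ranged from 10 to 18 above and 5 to 10 below. The 18 above came without KD replicate 3, where 3526 of all 17330 genes were above. The 10 below came without DE replicate 3, where 5224 of all 17360 genes were below. GATA6-AS1 ranged from -1.38 to -1.11, and at an adjusted p of 0.01 its change of -1.26 did not pass, nor did any member, 0 higher. Over all genes 50 to 258 rose and 25 to 375 fell with 1 library left out.

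Over all genes, the calls higher and lower were 314 and 265 in the fit reported, 1042 and 1173 with the replicate block, 132 and 107 with no filter on low values, 860 and 875 with quantile normalization, 879 and 864 with median-ratio scaling, 874 and 808 without mitochondrial genes, 527 and 747 without replicate 3 of both groups, and 73 and 33 at an adjusted p of 0.01. For the members these were 12 and 4 with the block, 8 and 3 with quantile normalization, 9 and 1 with median-ratio scaling, 8 and 2 without mitochondrial genes and 4 and 3 without replicate 3 of both groups. Members above without overlap numbered 16 with median-ratio scaling (15.1% of all genes) or without mitochondrial genes (14.6%). Without replicate 3 of both groups 18 of 33 members were above and 10 below, against 3683 and 5563 of all 16872 genes tested. The block combined with TPM without mitochondrial genes gave 1422 and 1338 calls over all genes (7.44% and 7%) and the block with median-ratio scaling 1448 and 1426 (8.18% and 8.05%), with 16 members higher, 4 lower and 16 above in each; both were chosen after seeing the data. Calls of other pathway genes that appeared with the block alone rest on the assumed pairing. Depth limits PDK4, CA9 and ANKRD37, where 1 library held as few as 7 reads.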
